A study of Rattus norvegicus with 6 samples.

Results

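The secretory granule and exocytosis genes are a set of 7 genes of the regulated secretory pathway, chosen by their Ensembl identifiers, of 22250 genes listed in the count tables. They comprise the granule protein Chga (ENSRNOG00000008149), the prohormone convertases Pcsk1 (ENSRNOG00000011107) and Pcsk2 (ENSRNOG00000005438), and 4 genes of the membrane fusion machinery, Snap25 (ENSRNOG00000006037), Syt1 (ENSRNOG00000006426), Stx1a (ENSRNOG00000029165) and Vamp2 (ENSRNOG00000006989). Chga was not analysed here, since the tables used here hold no row with its identifier, so that 6 of the 7 genes were measured and the cargo side of the set rests on both convertases alone. The tables carry identifiers without gene names, and the names are those given with the identifiers when the set was chosen. All 6 measured genes passed the filter on low counts, which left 12596 genes for the test; Syt1 passed it only with its treated libraries counted, since 2 of its 3 controls reached the 1.49 CPM that the filter asks of 3 libraries.

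BRIN-BD11 is a rat line that secretes insulin in response to glucose, made by electrofusing RINm5F cells with islet cells of a New England Deaconess Hospital rat. It is a single immortal line. The study asked how MS-275 (entinostat), an inhibitor of class I histone deacetylases, changes the transcriptome of these cells. RNA was sequenced from 3 control libraries without the inhibitor and 3 libraries of cells given 5 µM MS-275 for 16 h, added 24 h after seeding with 0.1% DMSO as its vehicle; all cells were at passage 25. The labels name no vehicle for the controls, whereas the study's text treats them with DMSO, at a lower concentration than the labels give for the treated cells. The groups cannot be taken as matched for vehicle, and an effect of that difference cannot be told apart from one of MS-275. Nothing says that the 3 libraries of a group came from cultures grown separately, so the p-values measure only the spread between these libraries, which may be technical. The set could not be joined to markers of beta cells or of other cells, because no other identifier was paired with a name.

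Insulin is made as a prohormone and is cut inside the maturing granule by PC1/3, the product of Pcsk1, and by PC2, the product of Pcsk2. The granule then fuses with the plasma membrane when VAMP2 on the granule pairs with syntaxin 1A and SNAP-25 on the plasma membrane, forming the SNARE complex. Synaptotagmins such as the product of Syt1 bind calcium and couple its rise to fusion, and chromogranin A, the product of Chga, is a cargo protein of the same granules.

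The libraries held between 5230555 and 9172422 counts on genes. In the first principal component of log2 CPM (counts scaled to the library's total, with TMM factors), which held 88.0% of the variance, control replicate 1 at -44.2 and MS-275 replicate 3 at 44.7 lay nearest to the opposite group, against -58.2 and -57.0 for the other controls and 55.0 and 59.8 for the other treated libraries. Each fold change is therefore also given without these 2 libraries.

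MS-275 treatment raised 5 of the 6 genes and lowered 1, at an adjusted p under 0.05 in edgeR's quasi-likelihood test, where 32.1% of the tested genes were higher and 31.5% lower. Syt1 is among the genes counted as higher here and below, and it passed the filter only with its treated libraries counted. The convertase Pcsk2 and the SNARE gene Snap25 rose about equally in fold, Syt1 rose the most, Stx1a rose by less than 2-fold, Pcsk1 rose by a small amount that most alternatives did not uphold, and Vamp2 fell. Without control replicate 1 or without MS-275 replicate 3, 4 genes rose and 1 fell, Pcsk1 being the one that lost its call. Of the tested genes, 31.6% were higher and 30.1% lower without the first of these libraries, and 32.0% and 31.4% without the second. The balance over all tested genes moved with the scaling, with 29.1% higher and 35.3% lower with library sizes alone and 36.5% and 26.1% with upper-quartile scaling. The p-values were adjusted over all tested genes by Benjamini-Hochberg. At an adjusted p under 0.01, 4 members were higher, against 26.7% of the tested genes, and 1 was lower, against 25.3%. When the log2 fold change also had to reach 1 in either direction, 3 of the 6 genes were higher, against 13.9% of the tested genes. These were Pcsk2, Snap25 and Syt1, of which Syt1 passed the filter only with its treated libraries counted. No member was lower by at least 1 on the log2 scale, against 5.16% of the tested genes. The lowest log2 fold change was that of Vamp2, -0.75 in edgeR and -0.76 in DESeq2, so the choice of p could not change this count. The values of the 3 treated libraries lay above those of all 3 controls in 5 members, against 34.1% of the tested genes, and below them in 1 member, against 34.0%. Syt1 is among these 5, and it was tested only because its treated libraries were high. An exact permutation test over the 6 libraries gave p = 0.1 (two-sided) for each of the 6 genes, the smallest that 3 libraries against 3 allow. In RNA of whole cultures, a change in the share of cells with a transcript and a change in its amount per cell cannot be told apart, for rises and falls alike.

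**Figure D1:**
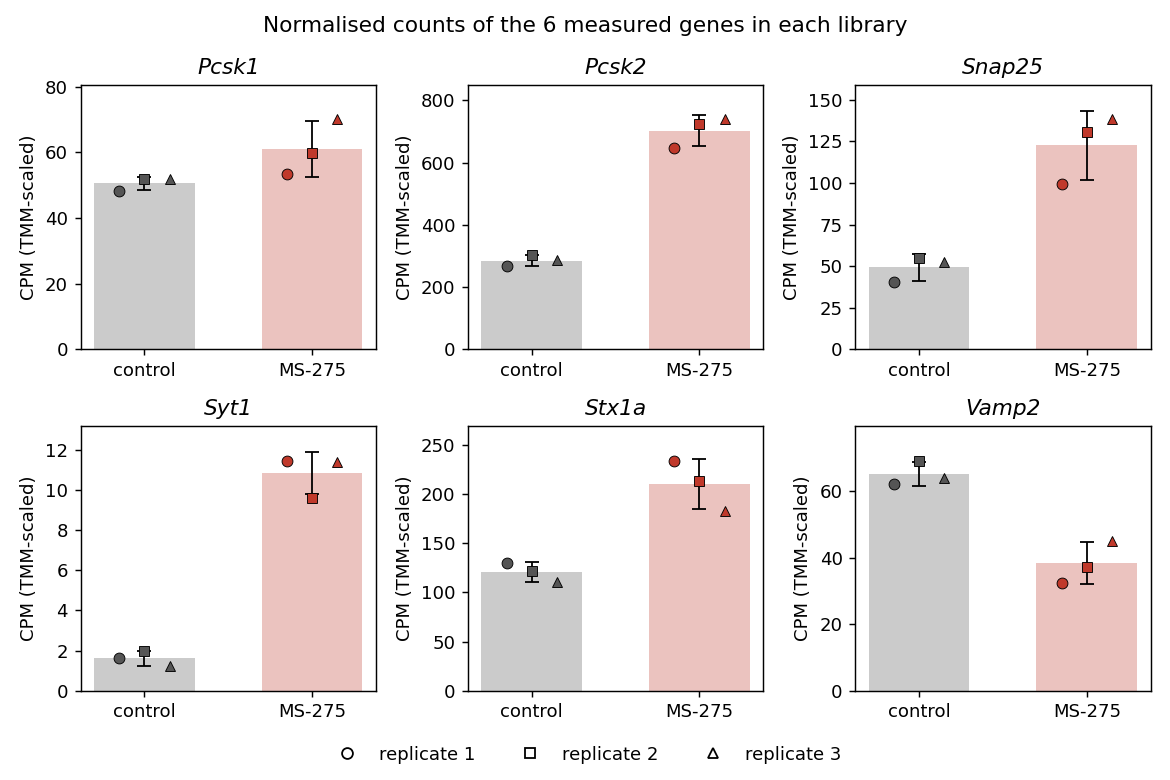
CPM (TMM-scaled, linear axis from 0) of each measured gene in the 3 control and 3 MS-275 libraries; bars are group means, error bars the SD (n = 3), and symbols the replicates. The groups do not overlap in any panel, but in Pcsk1 the lowest treated library (53.4 CPM) lies close to the highest control (51.7 CPM).

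Pcsk2 encodes the convertase PC2. It had 267, 304 and 286 CPM in control replicates 1, 2 and 3 and 646, 723 and 739 CPM in MS-275 replicates 1, 2 and 3. All treated libraries lay well above all controls, and the means were 285 ± 18.4 (SD, n = 3) and 703 ± 49.4 (SD, n = 3). The log2 fold change was 1.30 (standard error, SE, 0.08, edgeR's quasi-likelihood test, adjusted p = 4.82e-09), a 2.46-fold increase with a 95% interval from 1.13 to 1.47 on the log2 scale. Of the tested genes, 10.2% had a higher log2 fold change. The counts behind these values were between 1651 and 6608, so that counting error contributed a coefficient of variation of 2.22% in the controls and 1.54% in the treated libraries, against 6.45% and 7.03% between replicates. Without control replicate 1 the log2 fold change was 1.26, and without MS-275 replicate 3 it was also 1.26. In RefSeq's annotation of GRCr8, which is not the assembly used for counting, 1 pseudogene overlaps the span of Pcsk2. Whether its reads reach this count was not tested.

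The sequence before the start of Pcsk2 is shown because this member had the lowest p of the set and the highest GC content among the 4 members found by symbol in RefSeq's promoter table. It covers the 250 bases upstream of the start site, at chr3:151333688-151333937 of GRCr8, plus strand, and lies outside the transcribed span. The capitals mark the letters of the GC box, GGGCGG, searched on both strands with overlapping matches counted separately.
Pcsk2: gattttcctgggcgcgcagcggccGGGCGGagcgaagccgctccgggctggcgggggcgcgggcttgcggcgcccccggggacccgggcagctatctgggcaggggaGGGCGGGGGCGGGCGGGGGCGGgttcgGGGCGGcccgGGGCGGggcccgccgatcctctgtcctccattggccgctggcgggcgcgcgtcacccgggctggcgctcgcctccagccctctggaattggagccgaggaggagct
The window held 7 GC boxes, 34 CpG dinucleotides and a GC content of 79.6%. Over 33469 windows of the same length, 30.5% held a GC box, the median GC content was 51.2%, and 97.0% had fewer CpG dinucleotides. The half-site of the cAMP response element, TGACG, occurred 1 time on the minus strand, as it did on either strand in 18.2% of all windows, and the full element TGACGTCA, present in 1.59% of the windows, did not occur. These are descriptions of letters and not of binding.

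Pcsk1 encodes the convertase PC1/3. Its values were 48.2, 51.7 and 51.7 CPM in the control libraries and 53.4, 59.6 and 70.0 CPM in MS-275 replicates 1, 2 and 3. The treated libraries lay above the controls, but the gap between MS-275 replicate 1 and the highest control was smaller than the spread within the treated group. The means were 50.6 ± 2.05 (SD, n = 3) and 61.0 ± 8.39 (SD, n = 3). The log2 fold change of 0.28 (SE 0.11, edgeR's quasi-likelihood test, adjusted p = 0.0343) is a 1.21-fold increase, with a 95% interval from 0.05 to 0.51 on the log2 scale, and 34.3% of the tested genes had a higher one. Without MS-275 replicate 3 it was 0.16 (adjusted p = 0.201, edgeR's quasi-likelihood test), and it was 0.25 without control replicate 1 (adjusted p = 0.0880, edgeR's quasi-likelihood test), so that the call was lost in both cases. It was also lost in DESeq2, with library sizes in place of TMM, and without control replicate 2 or 3 or MS-275 replicate 2, which makes 7 of the 12 alternatives, over which the adjusted p from edgeR or DESeq2 ran from 0.00444 to 0.201.

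As the counts of both convertases come from the same library, their ratio does not depend on the scaling between libraries. Gene lengths of the build were not used, so only the change of the ratio is read and not its level. Pcsk2 to Pcsk1 was 5.54, 5.87 and 5.52 in the controls and 12.1, 12.1 and 10.6 in the treated libraries. The ratio was thus 2.05-fold higher with MS-275, with a log2 difference of 1.04 (SE 0.07, n = 3 per group) and no overlap between the groups.

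Snap25 encodes SNAP-25, a SNARE of the plasma membrane. It had 40.3, 54.8 and 52.6 CPM in the controls and 99.2, 131 and 138 CPM with MS-275. Control replicate 1 and MS-275 replicate 1 were the lowest of their groups, and the groups were far apart, with means of 49.2 ± 7.84 (SD, n = 3) and 123 ± 20.7 (SD, n = 3). The increase was 2.51-fold, with a log2 fold change of 1.33 (SE 0.14, 95% interval 1.04 to 1.61, edgeR's quasi-likelihood test, adjusted p = 1.21e-06). Among the tested genes, 9.96% had a higher log2 fold change. The spread between replicates, 15.9% of the mean in the controls and 16.9% in the treated libraries, was above the counting error of 5.37% and 3.73%. Without control replicate 1 the log2 fold change was 1.20 and without MS-275 replicate 3 it was 1.23. The study measured SNAP-25 protein separately, and no protein value was analysed here. In the GRCr8 annotation 2 long noncoding RNA genes overlap the span of Snap25, and their part in the count was not tested.

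Stx1a encodes syntaxin 1A, the other plasma membrane SNARE. Its libraries gave 130, 122 and 111 CPM in the controls and 234, 214 and 183 CPM with MS-275. MS-275 replicate 3, the highest treated library for Pcsk1, Pcsk2 and Snap25, was the lowest for Stx1a, but it stayed above every control. The means were 121 ± 9.82 (SD, n = 3) and 210 ± 25.8 (SD, n = 3), and edgeR's estimate was a 1.73-fold increase. The log2 fold change was 0.79 (SE 0.10, edgeR's quasi-likelihood test, adjusted p = 3.86e-06), and its 95% interval, from 0.588 to 0.998, ended just under 1. With upper-quartile scaling the log2 fold change was 0.88 (SE 0.10), nearer to 1. It was 0.85 without control replicate 1 and 0.89 without MS-275 replicate 3. In 18.0% of the tested genes the log2 fold change was higher.

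The promoter of Stx1a is shown beside that of Pcsk2 as a second member that rose. The stretch covers the 174 bases of its window that lie outside the gene's RefSeq span, at chr12:27306548-27306721 of GRCr8, minus strand, read 5′ to 3′, with GC boxes in capitals.
Stx1a: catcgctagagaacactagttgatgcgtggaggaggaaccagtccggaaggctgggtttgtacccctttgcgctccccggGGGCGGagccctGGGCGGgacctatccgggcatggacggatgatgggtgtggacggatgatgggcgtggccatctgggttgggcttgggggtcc
It holds 2 GC boxes, and the whole window of 250 bases holds 4, with 23 CpG dinucleotides and a GC content of 68.4%. The windows of Syt1, which rose, and Vamp2, which fell, lie wholly or almost wholly inside the RefSeq spans of these genes and are given by their values. Syt1 had 3 GC boxes, 8 CpG dinucleotides and a GC content of 66.0%. Vamp2 had 3 GC boxes, 24 CpG dinucleotides, a GC content of 68.0% and 1 cAMP response element half-site. The 4 windows thus all held GC boxes and were all richer in GC than the median window, whichever way the gene moved. No window of Chga, Pcsk1 or Snap25 was matched.

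Syt1 encodes synaptotagmin 1, a calcium sensor of vesicle fusion. It had counts of 13, 16 and 7 in the controls and 62, 49 and 102 in MS-275 replicates 1, 2 and 3. Scaled for library size, these were 1.64, 1.97 and 1.21 CPM in the controls and 11.5, 9.61 and 11.4 CPM with MS-275. Every control count was above the floor of 3 counts, which is between 0.335 and 0.589 CPM in these libraries. Only 2 of the 3 controls reached the 1.49 CPM of the filter, so Syt1 was tested only because its treated libraries were high. Its adjusted p and its rank among the tested genes are therefore descriptions. The mean rose from 1.60 ± 0.378 (SD, n = 3) to 10.8 ± 1.05 (SD, n = 3). The log2 fold change of 2.72 (SE 0.25, 95% interval 2.18 to 3.25, edgeR's quasi-likelihood test, adjusted p = 2.48e-07) corresponds to a 6.57-fold increase, and 2.93% of the tested genes had a higher one. Counting error alone gives a coefficient of variation of 30.7% in the controls, above the 23.6% seen between them, so the spread between the controls did not exceed counting error. The log2 fold change was 2.72 without control replicate 1 and 2.67 without MS-275 replicate 3. In GRCr8, 6 other genes lie within or across the span of Syt1, 3 long noncoding RNA genes, 2 pseudogenes and 1 protein-coding gene, and whether they share reads with it was not tested.

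Vamp2 encodes VAMP2, the SNARE of the granule membrane, and was the only measured member that fell. It had 62.3, 69.2 and 64.0 CPM in the controls and 32.5, 37.3 and 45.1 CPM with MS-275. All treated libraries lay below all controls, with MS-275 replicate 3 nearest to them. The means were 65.2 ± 3.59 (SD, n = 3) and 38.3 ± 6.33 (SD, n = 3), and edgeR's estimate was a decrease by 40.7%. The log2 fold change was -0.75 (SE 0.12, 95% interval -1.002 to -0.503, edgeR's quasi-likelihood test, adjusted p = 4.29e-05). Of the tested genes, 10.9% had a lower one. It was -0.78 without control replicate 1 and -0.90 without MS-275 replicate 3, and it was negative with an adjusted p under 0.05 in all 12 alternatives, the 3 that change the scaling included.

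**Figure D2:**
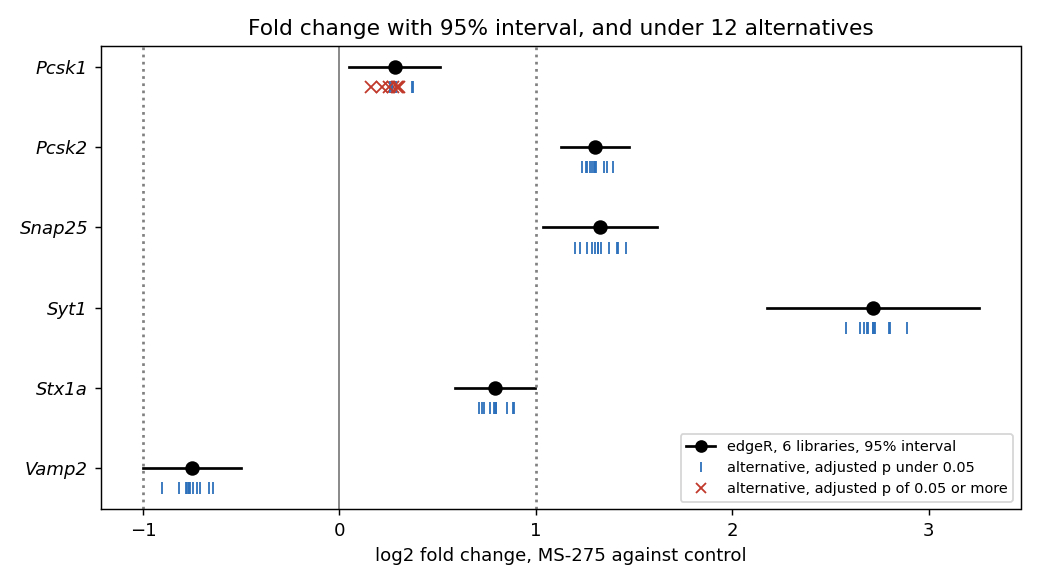
Log2 fold change of each measured gene, MS-275 against control (x axis), with the edgeR estimate and its 95% interval in black and the 12 alternatives of scaling, test, filter, block and left-out library below it. The alternatives kept an adjusted p under 0.05 in 5 genes, whereas 7 of those of Pcsk1 did not (crosses); dotted lines mark a log2 fold change of 1 and -1.

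The convertases and the fusion machinery did not part as groups. The log2 fold changes of both convertases were 0.28 and 1.30, with a median of 0.79, whereas those of the 4 fusion genes ran from -0.75 to 2.72, with a median of 1.06. Syt1 sets the upper end and enters this median, although it passed the filter only with its treated libraries counted. Snap25, Stx1a and Vamp2 had 1.33, 0.79 and -0.75, so the fusion median is a description that depends on Syt1. The median over all tested genes was -0.01. The range of the convertases lay inside that of the fusion genes, and Chga, the cargo member, could not be placed. Without MS-275 replicate 3 the medians were 0.71 and 1.06, and without control replicate 1 they were 0.75 and 1.03, with Syt1 in both fusion medians.

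**Figure D3:**
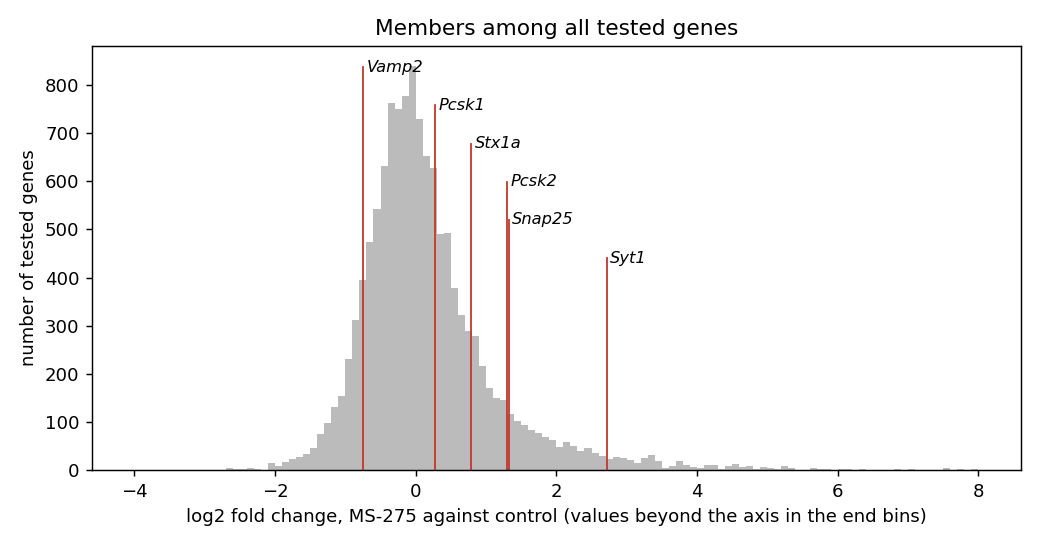
Histogram of the log2 fold changes of the 12596 tested genes (x axis, MS-275 against control; y axis, number of genes), with the 6 measured members as red lines of arbitrary height. Vamp2 lies on the lower side, Pcsk1 near the centre, and Stx1a, Pcsk2, Snap25 and Syt1 on the higher side.

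The ratios between SNARE genes are given as values, and no test was made of them. Snap25 to Vamp2 was 0.646, 0.792 and 0.822 in the controls and 3.05, 3.51 and 3.07 in the treated libraries, 4.27-fold higher with MS-275, with a log2 difference of 2.10 (SE 0.13, n = 3 per group). Stx1a to Vamp2 was 2.09, 1.76 and 1.73 in the controls and 7.20, 5.73 and 4.06 with MS-275. This ratio was 2.98-fold higher, with a log2 difference of 1.57 (SE 0.26, n = 3 per group), and it spread more in the treated libraries than in the controls. Syt1 to Vamp2 was between 0.0189 and 0.0284 in the controls and between 0.253 and 0.352 with MS-275. In these 3 ratios to the granule SNARE the groups did not overlap. This follows from the single genes, since each numerator lay above all controls and Vamp2 below them, and adds no further result.

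The ratio between both SNAREs of the plasma membrane had a smaller log2 difference in value. Snap25 to Stx1a was 0.309, 0.451 and 0.475 in the controls and 0.424, 0.612 and 0.755 with MS-275. Here the groups overlapped, since MS-275 replicate 1 lay below control replicates 2 and 3, and the log2 difference was 0.52 (SE 0.31, n = 3 per group). In both groups replicate 1 was the lowest and replicate 3 the highest, and each treated library lay above the control of its own number. The SE takes the libraries as unpaired, and whether the numbers pair them is not known. It ran from 0.33 to 0.75 when each library was left out in turn.

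Across both sides of the set, Pcsk2 and Snap25 kept nearly the same ratio. It was 6.62, 5.54 and 5.43 in the controls and 6.52, 5.52 and 5.35 with MS-275, with a log2 difference of -0.02 (SE 0.13, n = 3 per group). Its sign changed with the library left out, from -0.10 to 0.07, and the difference was within its SE. In both groups replicate 1 was the highest and replicate 3 the lowest, and each treated library lay slightly below the control of its own number. This SE and the left-out values also take the libraries as unpaired. Pcsk1 to Snap25 was 1.20, 0.944 and 0.984 in the controls and lower with MS-275, at 0.538, 0.456 and 0.506, a log2 difference of -1.05 (SE 0.13, n = 3 per group). Pcsk1 to Vamp2 was between 0.748 and 0.808 in the controls and 2.06-fold higher with MS-275, between 1.55 and 1.64. Its log2 difference was 1.04 (SE 0.04, n = 3 per group).

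**Figure D4:**
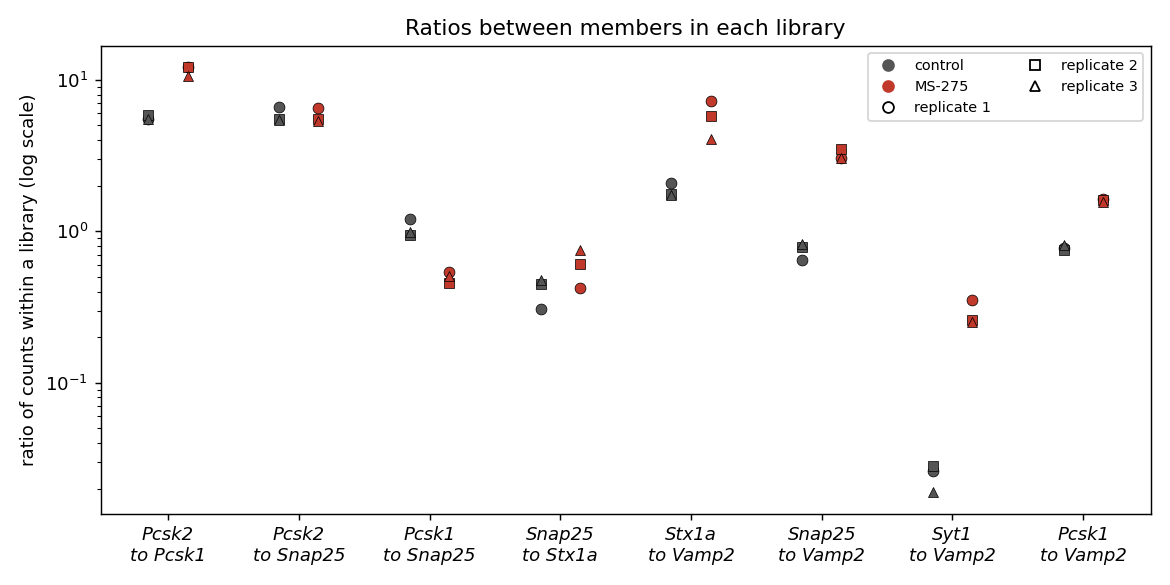
Ratio of the counts of 2 members within each library (y axis, log scale) for 8 pairs, controls in grey and MS-275 in red, with symbols for the replicates. The groups are apart in the 4 ratios to Vamp2, as follows from the single genes, and in Pcsk2 to Pcsk1 and Pcsk1 to Snap25. They overlap in Snap25 to Stx1a and in Pcsk2 to Snap25.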

How the data were processed

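Total RNA of BRIN-BD11 cells was sequenced as paired ends. The authors removed contaminating reads with bowtie2, mapped the reads left over with STAR, on Rnor_6.0, and deposited raw counts of reads per gene, one table per library; Trimmomatic is named in the submitters' processing notes. The text names featureCounts, but each table ends with 5 summary lines of htseq-count, which were left out. Of the entries in each deposited table, 29.2% to 31.4% were counted on genes, 60.2% to 61.9% had no feature, 7.95% to 9.19% aligned more than once and 0.172% to 0.216% lay on more than one gene. Strand setting and annotation release are not given in the sources used here. The authors' own DESeq2 comparison was also deposited (group means, fold changes and p-values) and was not used.

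Groups and replicate numbers were read from the sample titles. Counts were filtered with filterByExpr, which kept 12596 genes and 99.9% of the counts, scaled by TMM and tested with the quasi-likelihood test of edgeR 4.0.16 (robust, no block) in R 4.3.3, with Benjamini-Hochberg adjustment over all tested genes. The script was tested on simulated data. The standard error is the log2 fold change divided by the square root of F. CPM carry TMM scaling; log2 CPM used a prior count of 2. Depth was 5230555 to 9172422 counts on genes, where 1 count is 0.112 to 0.196 CPM, and counting errors cover counting only. Alternatives were 2 other scalings, DESeq2 1.42.0, 2 other filters, a replicate block, each library left out and other thresholds. The members and lists were chosen with earlier results of these data known. Every member is named. Lists of other granule, exocytosis and marker genes had been set by symbol, but the RefSeq table pairs 0 genes with an Ensembl identifier, so these lists, levels per gene length, and marker checks were not run.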

Additional observations from a re-analysis of the deposited data

How the results depend on the processing

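Direction and side of the threshold held for Pcsk2, Snap25, Syt1, Stx1a and Vamp2 under all 12 alternatives of scaling, test, filter, block and left-out library. For Syt1, which passed the main filter only with its treated libraries counted, the side of the threshold is a description. Pcsk1 kept its direction, with a log2 fold change of 0.21 with library sizes alone and 0.28 in DESeq2, where its adjusted p was 0.0945 (edgeR) and 0.0741 (DESeq2), and from 0.16 to 0.37 with each library left out, the lowest without MS-275 replicate 3; the cause was not tested. Members called higher were 4 in place of 5 with library sizes alone, in DESeq2 and without each library other than MS-275 replicate 1, against 25.8% to 32.0% of the tested genes in these 7 alternatives. The log2 difference of the ratio of Pcsk2 to Snap25 ran from -0.104 to 0.074 with each library left out. Where the log2 fold change also had to reach 1 in either direction, the counts went by construction from 5 to 3 members and from 4039 to 1754 tested genes higher, and from 1 to 0 members and from 3966 to 650 tested genes lower. Of all calls, 50.5% were higher, against 45.1% with library sizes and 58.3% with upper-quartile scaling. The median log2 fold change of all genes was -0.01 with TMM, -0.08 with library sizes, 0.08 with upper-quartile scaling and 0.12 in DESeq2.

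The labels give both groups replicate numbers 1 to 3 and do not say whether the numbers pair the libraries. The correlation of same-numbered deviations from the group mean was 0.16, -0.02 and 0.13 for replicates 1, 2 and 3. Control replicates 1 and 3 correlated best with the treated library of their own number, and control replicate 2 did not. With 3 libraries per group these values cannot decide whether the libraries are paired. With the replicate number as a block, 5 members were higher and 1 was lower, Pcsk1 had a log2 fold change of 0.27 and Vamp2 one of -0.77, and 32.9% of the tested genes were higher and 32.7% lower. The SE of Snap25 was 0.09 with the block and 0.14 without it. It was also smaller with the block for the other members except Syt1, which had 0.27 with the block and 0.25 without it. Ratios per gene length and the counts over lists of other genes were not run. Depth limits Syt1, with 7 to 16 control counts.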

Other observations

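For Snap25 and for Pcsk2, the gene with the most similar pattern was sought by Pearson's r of log2 CPM over the 6 libraries, as a description. For Snap25 it was ENSRNOG00000003967 (r = 0.998), and 38 genes were above an r of 0.99. For Pcsk2 it was ENSRNOG00000060410 (r = 0.999), and 154 genes were above that limit. The libraries fall into the control and MS-275 clusters, so that such an r largely repeats the difference between the groups. Both genes are named by identifier only. Their own log2 fold changes, 0.51 (standard error 0.08) and 0.60 (standard error 0.07), were smaller than the 1.33 of Snap25 and the 1.30 of Pcsk2, since r does not read the size of a change.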
